A study of Rattus norvegicus with 4 samples.

Results

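Neuronal nicotinic acetylcholine receptors are represented here by 8 subunit genes, Chrna3, Chrna4, Chrna5, Chrna6, Chrna7, Chrnb2, Chrnb3 and Chrnb4, found by symbol among the 32883 genes of single-nucleus count tables from the ventral tegmental area (VTA), a midbrain region of dopamine, GABA and glutamate neurons. The tissue came from experimentally naive adult Sprague-Dawley rats aged 90 to 120 days. Females and males gave 2 libraries each. Every library mixed frozen tissue of 3 animals, so the library was the replicate, and p-values measure the spread between such pools. Nuclei had been stained with 7-AAD, a DNA dye, and sorted before droplet capture, so the counts are of RNA in nuclei. All values are counts of unique molecular identifiers (UMIs), the tags that mark single captured RNA molecules. No treatment was given, and the comparisons are between kinds of nuclei and between the sexes.

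Each receptor is a ring of subunits around a cation channel that opens when acetylcholine or nicotine binds. The alpha7 subunit, encoded by Chrna7, can form channels alone, whereas alpha3, alpha4 and alpha6 pair with beta2 or beta4, and alpha5 and beta3 join such receptors as accessory subunits. In the midbrain these receptors carry the direct action of nicotine on dopamine neurons and on the GABA neurons that contact them. Receptors with the alpha6 and beta3 subunits are known for their restriction to catecholamine neurons and a few sensory pathways.

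The identifiers in the files are Chrna3 ENSRNOG00000013829, Chrna4 ENSRNOG00000011202, Chrna5 ENSRNOG00000013610, Chrna6 ENSRNOG00000012283, Chrna7 ENSRNOG00000010853, Chrnb2 ENSRNOG00000020778, Chrnb3 ENSRNOG00000012448 and Chrnb4 ENSRNOG00000014427. Nuclei were assigned to gates by raw UMIs of genes outside the family. The dopamine gate needed at least 2 UMIs each of Th, the rate-limiting enzyme of dopamine synthesis, and of Slc6a3, the dopamine transporter. The second gate needed at least 2 UMIs of Slc26a7, an anion transporter, and at least 1 of Gad2, a GABA-synthesizing enzyme. The GABA gate needed at least 2 UMIs of Gad1, the other such enzyme, and the glutamate gate at least 2 UMIs of Slc17a6, the vesicular glutamate transporter VGLUT2, with 0 of Gad1. Glial gates used at least 1 UMI each of Mog with Mobp for oligodendrocytes, at least 2 of Pdgfra for their precursors, and at least 1 each of Gja1 with Aqp4 for astrocytes and of Csf1r with C1qa for microglia. A nucleus that passed more than 1 neuron gate was counted in the first of them in this order. Of 20620 nuclei kept, 15671 (76.0%) fell into a gate, 4814 (23.3%) into none, and 135 (0.655%) met a neuron and a glial gate or 2 glial gates and were left out. The gates held 306 dopamine, 93 Slc26a7-Gad2, 1131 GABA, 1525 glutamate, 8505 oligodendrocyte, 1334 precursor, 1853 astrocyte and 924 microglial nuclei.

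Median depth was 9112 UMIs per nucleus in the dopamine gate, 7867 in the Slc26a7-Gad2 gate, 7501 in the GABA gate and 8268 in the glutamate gate, but 2401 in oligodendrocytes and 1357 in microglia. Summed counts of the dopamine gate were 705056 to 868993 UMIs per library, and those of the Slc26a7-Gad2 gate 144707 to 255369. Levels are given as CPM, the UMIs of a gene per 1000000 UMIs summed over a gate in a library. Markers were summed over each gate as a check of the labels. The 7 dopamine neuron markers summed to 2197 to 2674 CPM in the dopamine gate over the 4 libraries and to 50.3 to 80.2 in the GABA gate. Other lists were less specific. The 3 glutamate markers summed to 1225 to 1608 CPM in the glutamate gate and 457 to 577 in the dopamine gate. In each of these gates only 1 of the 3 averaged 20 CPM or more, so the sums check that label weakly. The 4 precursor markers summed to 8112 to 9552 CPM in precursors and 2364 to 2413 in astrocytes. In the Slc26a7-Gad2 gate the dopamine markers summed to 1009 to 1287 CPM, with Ddc, which makes dopamine from L-DOPA, at 739 CPM, Slc6a3 at 54.3 CPM, the vesicular GABA transporter Slc32a1 at 267 CPM and Slc17a6 at 170 CPM. The 4 oligodendrocyte markers summed to 174 to 363 CPM in the 4 neuron gates, and their part in the results was not tested. Between any 2 libraries, 4 to 9 barcodes were shared. Levels are compared between gates for 1 gene and not between genes, because 3′ capture and annotation differ from gene to gene.

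Chrna6 and Chrnb3, which encode the alpha6 and beta3 subunits and are next to each other in the RefSeq gene order, were highest in dopamine nuclei, second in Slc26a7-Gad2 nuclei, and low in the other neurons. Chrna6 in the dopamine gate was at 109 and 133 CPM in the 2 female libraries and at 124 and 121 CPM in the 2 male libraries. In the Slc26a7-Gad2 gate it was at 83.3, 69.0, 82.9 and 58.7 CPM in the order female 1, female 2, male 1, male 2, which is kept below. In the GABA gate it reached 3.84 to 7.34 CPM and in the glutamate gate 1.55 to 3.10 CPM. The 4 neuron gates therefore kept 1 order without overlap of their libraries. Over all gated nuclei, 72.7% of Chrna6 UMIs lay in the dopamine gate, which held 306 nuclei, and 11.1% in the Slc26a7-Gad2 gate, which held 93. Over all nuclei kept, 58.4% lay in the dopamine gate and 15.3% in nuclei of no gate.

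Chrnb3 in dopamine nuclei was at 148, 215, 151 and 142 CPM. Female 2 was the highest library and stood apart from the other 3. In the Slc26a7-Gad2 gate the gene was at 63.7, 98.6, 76.0 and 86.1 CPM. In glutamate nuclei it ranged from 2.91 to 5.42 CPM and in GABA nuclei from 0.357 to 1.57 CPM, so the last 2 neuron gates stood in the opposite order to that for Chrna6. The dopamine gate held 77.9% of gated Chrnb3 UMIs. Over all nuclei kept it held 63.7%, and nuclei of no gate held 12.8%.

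Each fold change was tested with edgeR's quasi-likelihood test on the 16 gate sums with library as a block, and p-values were adjusted over all genes tested by the Benjamini-Hochberg method. Chrna6 in dopamine nuclei exceeded GABA nuclei by 4.63 ± 0.18 on the log2 scale (SE, edgeR adjusted p = 5.14e-19), with 4 of 4 libraries higher. It exceeded glutamate nuclei by 5.70 ± 0.19 (edgeR adjusted p = 2.15e-20). Chrnb3 exceeded GABA nuclei by 7.39 ± 0.22 (edgeR adjusted p = 2.01e-21), on 9 UMIs in the GABA gate, and glutamate nuclei by 5.44 ± 0.16 (edgeR adjusted p = 2.69e-21). Against the Slc26a7-Gad2 gate the differences were far smaller, 0.80 ± 0.20 for Chrna6 (edgeR adjusted p = 0.00425) and 1.05 ± 0.18 for Chrnb3 (edgeR adjusted p = 7.94e-05).

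The 2 genes also separated the Slc26a7-Gad2 gate from the other neurons. There Chrna6 exceeded GABA nuclei by 3.84 ± 0.30 (edgeR adjusted p = 2.77e-11) and Chrnb3 by 6.33 ± 0.37 (edgeR adjusted p = 4.83e-14). Between GABA and glutamate nuclei, Chrna6 was higher in GABA nuclei by 1.06 ± 0.31 (edgeR adjusted p = 0.0175), while Chrnb3 was lower by 1.95 on the log2 scale (SE 0.42, edgeR adjusted p = 0.00116). The 2 Chrna6 differences of about 1 or less depended on the gates. A version counted each nucleus in every neuron gate it passed, including nuclei that also passed a glial gate. Chrna6 in dopamine against Slc26a7-Gad2 nuclei then came to 0.29 (edgeR adjusted p = 0.295), and in GABA against glutamate nuclei to -0.12 (edgeR adjusted p = 0.837). In that version the gates held 323 dopamine, 116 Slc26a7-Gad2, 1168 GABA and 1630 glutamate nuclei. Of these, 19 nuclei counted in both the dopamine and the Slc26a7-Gad2 gate, 19 in both the dopamine and the glutamate gate, and 36 in both the Slc26a7-Gad2 and the glutamate gate. The parts of these shared nuclei and of nuclei with a glial gate in the change were not tested. Over 14 alternative settings, dopamine minus glutamate ran from 4.49 to 5.90 for Chrna6 and from 4.46 to 5.75 for Chrnb3, and both were called in each. The Chrna6 difference between GABA and glutamate nuclei was also no longer called without female 2 (0.99, edgeR adjusted p = 0.0793) or without male 2 (0.72, edgeR adjusted p = 0.261).

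**Figure D1:**
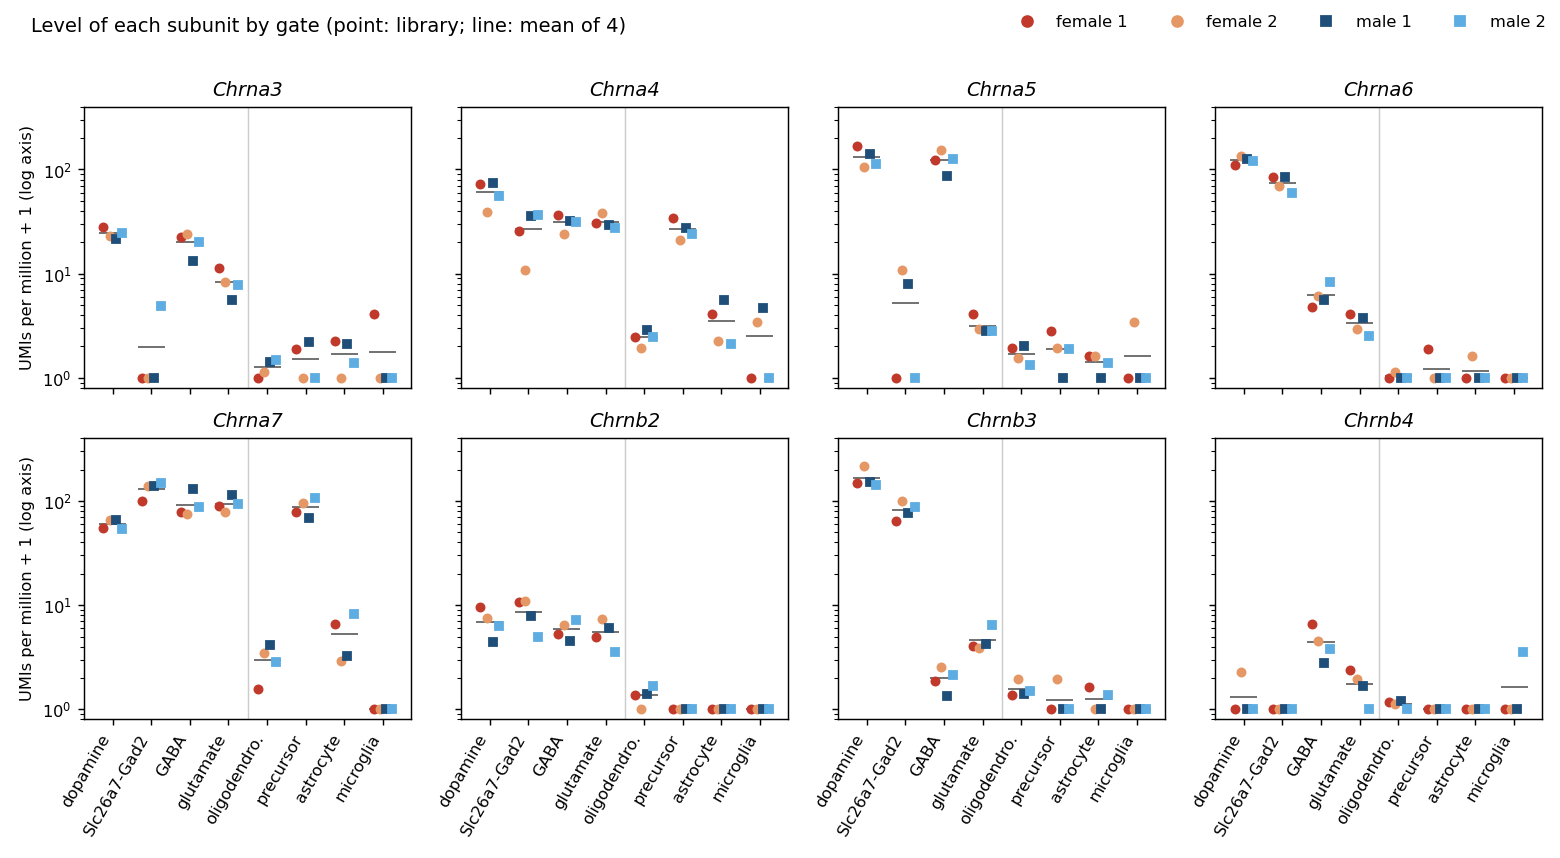
Level of each of the 8 subunit genes in the 8 gates, in CPM plus 1 on a log axis. Circles are female and squares male libraries, the short line is the mean of 4 libraries, and the vertical line parts neuron from glial gates. Chrna6 and Chrnb3 lie highest in the dopamine and Slc26a7-Gad2 gates, Chrna5 in the dopamine and GABA gates, and Chrna4 and Chrna7 reach the precursor gate at 25.7 and 86.3 CPM on average.

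Chrna5, Chrna3 and Chrnb4 are consecutive protein-coding genes on rat chromosome 8 in RefSeq (assembly GRCr8). Chrna5 lies on the plus strand and the other two on the minus strand, so that Chrna5 and Chrna3 point toward each other. The start regions of the 3 genes are shown because the genes were detected together in GABA nuclei, as given further on; they were chosen after those values had been seen. Each run holds 250 bases before and 50 after the gene start, written 5′ to 3′ on the gene's own strand, with matches to the E-box motif CANNTG in capitals, for Chrna5 at chr8:64265629-64265928, Chrna3 at chr8:64311202-64311501 and Chrnb4 at chr8:64333060-64333359.
Chrna5: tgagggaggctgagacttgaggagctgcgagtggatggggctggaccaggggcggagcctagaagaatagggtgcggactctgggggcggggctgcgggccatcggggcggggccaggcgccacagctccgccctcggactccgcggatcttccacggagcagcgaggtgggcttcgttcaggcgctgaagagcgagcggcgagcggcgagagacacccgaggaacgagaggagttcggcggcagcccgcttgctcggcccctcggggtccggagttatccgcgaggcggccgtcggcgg
Chrna3: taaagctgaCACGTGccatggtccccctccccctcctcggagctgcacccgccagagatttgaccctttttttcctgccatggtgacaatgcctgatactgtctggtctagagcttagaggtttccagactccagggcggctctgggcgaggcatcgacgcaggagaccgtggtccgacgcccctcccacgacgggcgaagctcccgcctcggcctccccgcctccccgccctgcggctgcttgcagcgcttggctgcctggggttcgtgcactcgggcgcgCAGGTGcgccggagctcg
Chrnb4: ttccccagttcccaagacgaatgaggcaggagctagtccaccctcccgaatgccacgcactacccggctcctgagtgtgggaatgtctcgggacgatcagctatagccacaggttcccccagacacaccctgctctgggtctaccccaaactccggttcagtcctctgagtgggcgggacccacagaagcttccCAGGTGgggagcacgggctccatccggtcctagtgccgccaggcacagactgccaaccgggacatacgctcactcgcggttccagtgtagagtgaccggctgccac

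The table of RefSeq promoters held 6 of the 8 members, not Chrna6 or Chrnb3. The 6 windows had a GC content of 61.0% to 74.7%, above the median of 51.7% over all 33469 windows. Of 4 motifs searched on both strands, only the palindromic E-box CANNTG, found in 72.1% of all windows, was matched: 2 times each in Chrna3, Chrna7 and Chrnb2, once in Chrnb4, and not in Chrna4 or Chrna5. The letters AAGGTCA, a site of Nr4a2-type receptors, TAATCC, a Pitx-type homeodomain site, and TGTTTAC, a forkhead site, were in none of the 6 windows, against 4.61%, 7.17% and 3.78% of all windows.

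Chrna5, the accessory alpha5 subunit, overlapped between dopamine and GABA nuclei and was low in the other 2 neuron gates. In dopamine nuclei it was at 169, 106, 140 and 113 CPM. In GABA nuclei it was at 121, 153, 84.7 and 126 CPM. The 2 gates overlapped, and dopamine minus GABA was 0.21 ± 0.14 on the log2 scale (SE, edgeR adjusted p = 0.288), with 2 libraries higher and 2 lower. The difference was called without female 2 (0.46, adjusted p = 0.0112) and with nuclei of exactly 1 gate (0.39, adjusted p = 0.0373), and it was 0.00 to 2 decimals without male 1.

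In glutamate nuclei Chrna5 lay between 1.81 and 3.10 CPM, and dopamine nuclei exceeded them by 5.93 ± 0.24 (edgeR adjusted p = 3.01e-18) and GABA nuclei by 5.72 ± 0.22 (edgeR adjusted p = 1.29e-18). The Slc26a7-Gad2 gate, which shared Chrna6 and Chrnb3 with dopamine nuclei, held only 3 Chrna5 UMIs, from female 2 and male 1, against 408 in the dopamine gate. The ratio of pooled levels was 35.4 (95% exact interval from the counts 12.0 to 172), and the edgeR difference was 5.19 ± 0.53 (adjusted p = 9.40e-09). Against GABA nuclei that gate was lower by 4.99 on the log2 scale (SE 0.53, edgeR adjusted p = 2.34e-08). Both were called in 14 of 14 alternative settings, but their size was not stable: dopamine minus Slc26a7-Gad2 ran from 2.61 with neuron gates at 1 UMI to 6.43 without female 2, and Slc26a7-Gad2 minus GABA from -5.97 without female 2 to -2.51 with gates at 1 UMI. With gates at 1 UMI, Chrna5 was also called higher in Slc26a7-Gad2 than in glutamate nuclei (2.60, edgeR adjusted p = 0.00111), where the difference with gates at 2 UMIs was 0.73 and not called.

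Chrna3, the alpha3 subunit of ganglionic receptors, was, like Chrna5, highest in dopamine and GABA nuclei. In dopamine nuclei it was at 26.9, 22.2, 20.7 and 23.6 CPM, in GABA nuclei at 21.3, 23.2, 12.2 and 19.2 CPM, and in glutamate nuclei at 10.4, 7.27, 4.62 and 6.71 CPM. Dopamine and GABA nuclei overlapped (0.38 ± 0.22, edgeR adjusted p = 0.196). Dopamine nuclei exceeded glutamate nuclei by 1.76 ± 0.24 (edgeR adjusted p = 1.05e-06), and GABA nuclei exceeded them by 1.38 ± 0.20 (edgeR adjusted p = 3.63e-06). The Slc26a7-Gad2 gate held 1 Chrna3 UMI, in male 2, so that the pooled level in dopamine nuclei was 18.7 times as high with an interval of 3.26 to 750 (edgeR adjusted p = 0.000162). The edgeR log2 difference of 4.25 ran from 2.40 with gates at 1 UMI to 8.45 without male 2, which leaves that gate at 0.

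Chrnb4, a beta subunit that pairs with alpha3, had few UMIs in every neuron gate. It reached 5.55, 3.53, 1.79 and 2.82 CPM in GABA nuclei, on 32 UMIs, and 0 to 1.41 CPM in glutamate nuclei, on 10. The dopamine gate held 1 UMI. The Slc26a7-Gad2 gate held 0 of 806920 UMIs, which allows up to 3.72 CPM and is not below the level of GABA nuclei. The gene had too few counts for the fit and was not tested. GABA nuclei lay above dopamine nuclei in 4 of 4 libraries, with a ratio of pooled levels of 10.5 (95% exact interval 1.75 to 427).

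Chrna4, the alpha4 subunit of the most widespread high-affinity nicotinic receptors in brain, was found in each neuron gate and was highest in dopamine nuclei. It was at 70.9, 37.9, 73.6 and 55.0 CPM in dopamine nuclei. The GABA gate ranged from 23.2 to 35.8 CPM, the glutamate gate from 26.3 to 36.8 CPM and the Slc26a7-Gad2 gate from 9.86 to 35.2 CPM. Dopamine nuclei stood above these 3 gates in 4 of 4 libraries, by 1.05 ± 0.18 over GABA nuclei (edgeR adjusted p = 1.77e-05), 1.08 ± 0.17 over glutamate nuclei (edgeR adjusted p = 8.07e-06) and 1.23 ± 0.34 over Slc26a7-Gad2 nuclei (edgeR adjusted p = 0.0113). The last difference was not called without female 1 (1.11, adjusted p = 0.0794) or with nuclei of exactly 1 gate (1.29, adjusted p = 0.0765). Chrna4 did not pass the test between any 2 of the other neuron gates, where its log2 differences were -0.17, -0.14 and 0.03.

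Chrnb2, the beta2 subunit that pairs with alpha4 and alpha6, also had few UMIs. It was at 3.45 to 8.51 CPM in dopamine, 3.92 to 9.86 in Slc26a7-Gad2, 3.57 to 6.21 in GABA and 2.58 to 6.30 CPM in glutamate nuclei, on 18, 6, 45 and 59 UMIs. The 4 gates overlapped, and the gene passed none of the 6 tests (edgeR adjusted p from 0.474 to 0.891). Precursors, astrocytes and microglia held no Chrnb2 UMI, which allows up to 0.727, 0.446 and 2.16 CPM.

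Chrna7, the subunit of homomeric alpha7 channels, was the only member called lower in dopamine nuclei than in each of the other neuron gates. It was at 53.9, 65.3, 64.4 and 52.4 CPM in dopamine nuclei. It was at 98.05, 138, 138 and 149 CPM in Slc26a7-Gad2 nuclei, 77.2, 74.2, 129 and 85.8 CPM in GABA nuclei, and 89.3, 77.1, 113 and 92.7 CPM in glutamate nuclei. No library of the other 3 gates reached down to the dopamine gate. Male 1 was the highest library in the GABA and glutamate gates.

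Dopamine nuclei were lower in Chrna7 than Slc26a7-Gad2 nuclei by 1.14 on the log2 scale (SE 0.19, edgeR adjusted p = 5.22e-05). They were lower than GABA nuclei by 0.56 (SE 0.13, edgeR adjusted p = 0.00113), a difference of 0.40 without male 1 (adjusted p = 0.0504). They were lower than glutamate nuclei by 0.59 (SE 0.13, edgeR adjusted p = 0.000572). Slc26a7-Gad2 nuclei exceeded GABA nuclei by 0.57 ± 0.17 (edgeR adjusted p = 0.0216) and glutamate nuclei by 0.54 ± 0.16 (edgeR adjusted p = 0.0318), but these 2 calls were lost in 6 and 8 of 14 alternative settings, with adjusted p up to 0.348 and 0.438.

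Among glia, oligodendrocyte precursors held Chrna7 and Chrna4 at levels that overlapped neuron gates. Their Chrna7 was at 77.0, 94.5, 67.3 and 106 CPM, overlapping GABA and glutamate nuclei, and their Chrna4 at 33.1, 19.8, 26.5 and 23.2 CPM. Astrocytes reached 1.88 to 7.16 CPM of Chrna7 and 1.13 to 4.54 CPM of Chrna4, and oligodendrocytes 0.554 to 3.11 and 0.954 to 1.86 CPM. Neuron markers were also higher in the precursor gate: the 3 pan-neuron markers found summed to 800 to 969 CPM there, against 105 to 143 CPM in oligodendrocytes, 77.0 to 211 CPM in astrocytes and 2858 to 7863 CPM in the 4 neuron gates, and their part in these levels was not tested. Precursors held 4 Chrna5 UMIs and 1 UMI each of Chrna6 and Chrnb3. Members with few counts overlapped elsewhere too, such as Chrnb3 in oligodendrocytes, at 0.369 to 0.954 CPM, and in GABA nuclei. Microglia held no UMI of Chrna6, Chrna7 or Chrnb3, which allows up to 2.16 CPM. Glia were not in the fit, so these differences were not tested.

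Counted by comparison, 6 of the 7 members tested were called between dopamine and glutamate nuclei, 5 higher and 1 lower, where 27% of the 11313 genes tested were called (13.8% higher and 13.2% lower). Between dopamine and Slc26a7-Gad2 nuclei 6 of 7 were called, 5 higher and 1 lower, against 15.8% of genes (8.75% and 7.04%). Between dopamine and GABA nuclei 4 of 7 were called, Chrna4, Chrna6 and Chrnb3 higher and Chrna7 lower, against 32.1% of genes (15.4% and 16.6%). Between Slc26a7-Gad2 and GABA nuclei 5 of 7 were called, 3 higher and 2 lower, against 10.4% (4.41% and 5.99%). Between Slc26a7-Gad2 and glutamate nuclei 3 of 7 were called, all higher, against 9.3% (3.99% and 5.31%). Between GABA and glutamate nuclei 4 of 7 were called, 3 higher and 1 lower, against 13.8% (7.02% and 6.82%). The comparisons share gates, so the counts are not independent. The median log2 difference of the 7 members was 1.76 for dopamine minus glutamate, 1.05 for dopamine minus Slc26a7-Gad2 and 0.38 for dopamine minus GABA, and that of all genes tested was within 0.05 of 0 in each of the 6 comparisons.

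**Figure D2:**
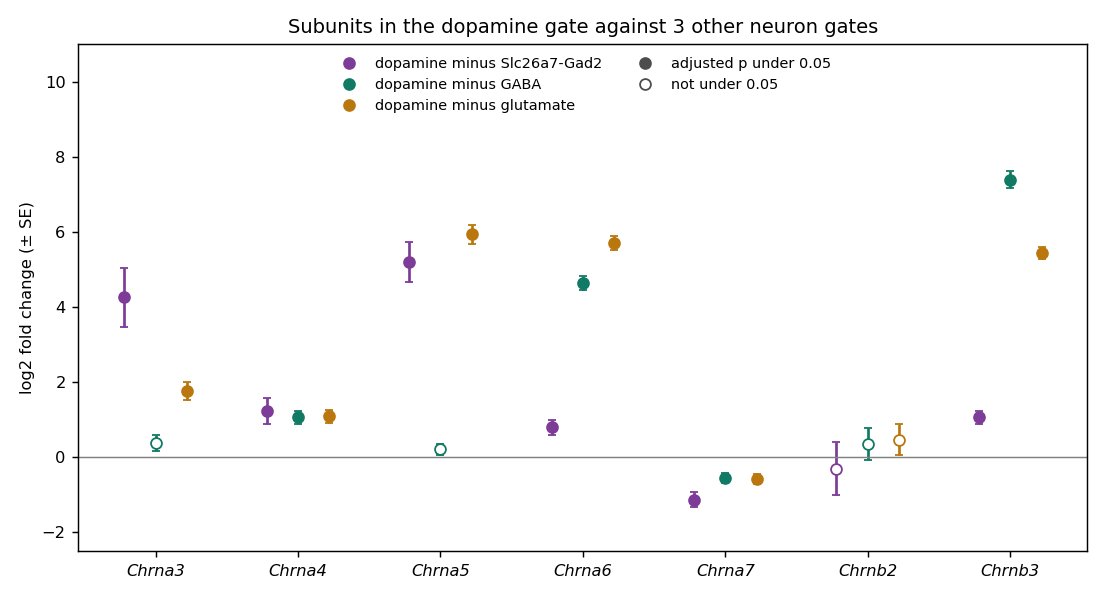
Log2 fold change of 7 subunit genes in the dopamine gate against each of 3 other neuron gates, with its standard error, from edgeR on 16 gate sums (4 libraries). Filled points have an adjusted p under 0.05. Chrna6 and Chrnb3 lie near 5 to 7 against GABA and glutamate nuclei and near 1 against Slc26a7-Gad2 nuclei, Chrna5 near 0 against GABA nuclei, and Chrna7 below 0 in all 3.

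To compare the share of nuclei with a UMI across depths, each nucleus was thinned to 2000 UMIs by its expected value, and shallower nuclei were left out. This removed none of the dopamine and Slc26a7-Gad2 nuclei, 3 of 1131 GABA nuclei and 12 of 1525 glutamate nuclei. More glia were lost: 3067 of 8505 oligodendrocytes, 335 of 1334 precursors and 312 of 1853 astrocytes, so their shares describe the deeper nuclei. At that depth Chrnb3 was seen in 23.6% ± 2.53 (SD, n = 4) of dopamine nuclei, against 0.0708% of oligodendrocytes, the background. As counted at full depth the shares were 56.4% and 0.142%. Chrna5 was seen in 19.2% ± 3.82, Chrna6 in 18.3% ± 1.39 and Chrna4 in 12.0% ± 3.11 of thinned dopamine nuclei, where oligodendrocytes gave 0.0716%, 0.0106% and 0.263%.

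The Slc26a7-Gad2 gate gave 15.1% ± 4.56 for Chrnb3, 14.8% ± 3.29 for Chrna6 and 19.5% ± 4.38 for Chrna7, but 0.780% ± 0.913 for Chrna5. GABA nuclei gave 18.6% ± 4.09 for Chrna5 and 14.1% ± 2.01 for Chrna7, and glutamate nuclei 14.4% ± 1.83 for Chrna7 and 6.04% ± 0.926 for Chrna4. Precursors gave 15.3% ± 2.15 for Chrna7 and 5.41% ± 1.51 for Chrna4. For Chrna7 the precursor, glutamate and GABA gates differed by less than the SD between libraries in both shares and levels. Microglia of that depth were 176 of 924, too few for a share of a rare gene.

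At full depth, a dopamine nucleus was the kind most often seen with several subunits. After thinning, 59.7% ± 2.56 of dopamine nuclei held a UMI of at least 1 member, against 46.9% ± 4.22 of Slc26a7-Gad2, 38.5% ± 1.85 of GABA, 22.8% ± 1.35 of glutamate and 20.04% ± 1.39 of precursor nuclei, and 0.727% ± 0.187 of oligodendrocytes. At full depth 50.0% ± 5.49 of dopamine nuclei held 3 or more members, against 18.3% ± 6.03, 7.35% ± 1.31 and 1.88% ± 0.843 of the other neuron gates in that order. Dopamine nuclei were also the deepest, with a median of 9112 UMIs against 7501 to 8268, and this share was not computed after thinning. The mean number of members per thinned nucleus was 0.879 in dopamine nuclei and 0.577, 0.448 and 0.244 in the other neuron gates. The largest number in a nucleus was 7 of 8. No single combination was common: the most frequent in dopamine nuclei was Chrna4 alone, in 22 of 306 nuclei (7.19%), followed by Chrnb3 alone in 17 and Chrna5 with Chrna6 and Chrnb3 in 16, and 25 nuclei (8.17%) held none. In GABA nuclei Chrna7 alone (243 of 1131) and Chrna5 alone (161) led, and 309 held none.

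Joint detection was set beside the product of the 2 single shares in the same library, the value that independent detection would give. In dopamine nuclei, Chrna6 and Chrnb3 were seen together in 3.92%, 7.37%, 4.52% and 5.52% of thinned nuclei, a mean of 5.34% ± 1.51 against a product of 4.35%, and 3 of 4 libraries lay above their product. Chrna5 and Chrna6 were seen together in 4.59% ± 0.436 against 3.49%, above it in 4 of 4 libraries, and all 3 genes together in 1.45% ± 0.266 against 0.819%. Such an excess was not particular to these genes. The joint share over the product was 1.07 to 1.68 by library for Chrna6 with Chrna7 and 1.14 to 1.33 for Chrna7 with Chrnb3. For Chrna3 with Chrna5 it was 1.19 to 2.11. The joint share of Chrna4 was below the product in 4 of 4 libraries with Chrna6 (1.74% ± 0.462 against 2.16%), with Chrnb3 (2.27% ± 0.708 against 2.77%) and with Chrna5 (2.01% ± 1.08 against 2.38%). That of Chrna3 with Chrna6 was also below in 4 of 4 libraries (0.653% ± 0.130 against 0.748%). At full depth 99 of 157 dopamine nuclei with Chrna6 (63.1%) also held Chrna5, against 54 of 149 without it (36.2%), with median depths of 10788 and 7435 UMIs. These ratios describe nuclei of pooled animals and were not tested.

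In GABA nuclei the departures were larger. Chrna3 and Chrna5 were seen together in 2.20%, 1.78%, 0.945% and 2.02% of thinned nuclei, on average 2.71 times their product and above it in 4 of 4 libraries. At full depth 91 of 108 GABA nuclei with Chrna3 (84.3%) held Chrna5, against 285 of 1023 without (27.9%), with median depths of 8624 and 7415 UMIs. Chrnb4 was seen with Chrna5 at 2.58 times the product on 25 nuclei, and 18 nuclei held Chrna3, Chrna5 and Chrnb4. Large excesses were not limited to neighbouring genes. Chrna5 was seen with Chrna6, which is not its neighbour, at 1.75 to 3.79 times the product by library, above it in 4 of 4 libraries. Only 43 GABA nuclei held Chrna6. Chrna3, Chrna5 and Chrnb4 are neighbours and Chrna5 faces Chrna3 on the opposite strand. The sources used here do not say whether the counting used strand, and the part of misassigned reads was not tested. Chrna5 was seen with Chrna7 less often than the product in 4 of 4 libraries (1.64% ± 0.157 against 2.57%, a ratio of 0.639). In the Slc26a7-Gad2 gate Chrna6 and Chrnb3 were seen together at 1.36 times the product, above it in 4 of 4 libraries, on 20 nuclei.

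**Figure D3:**
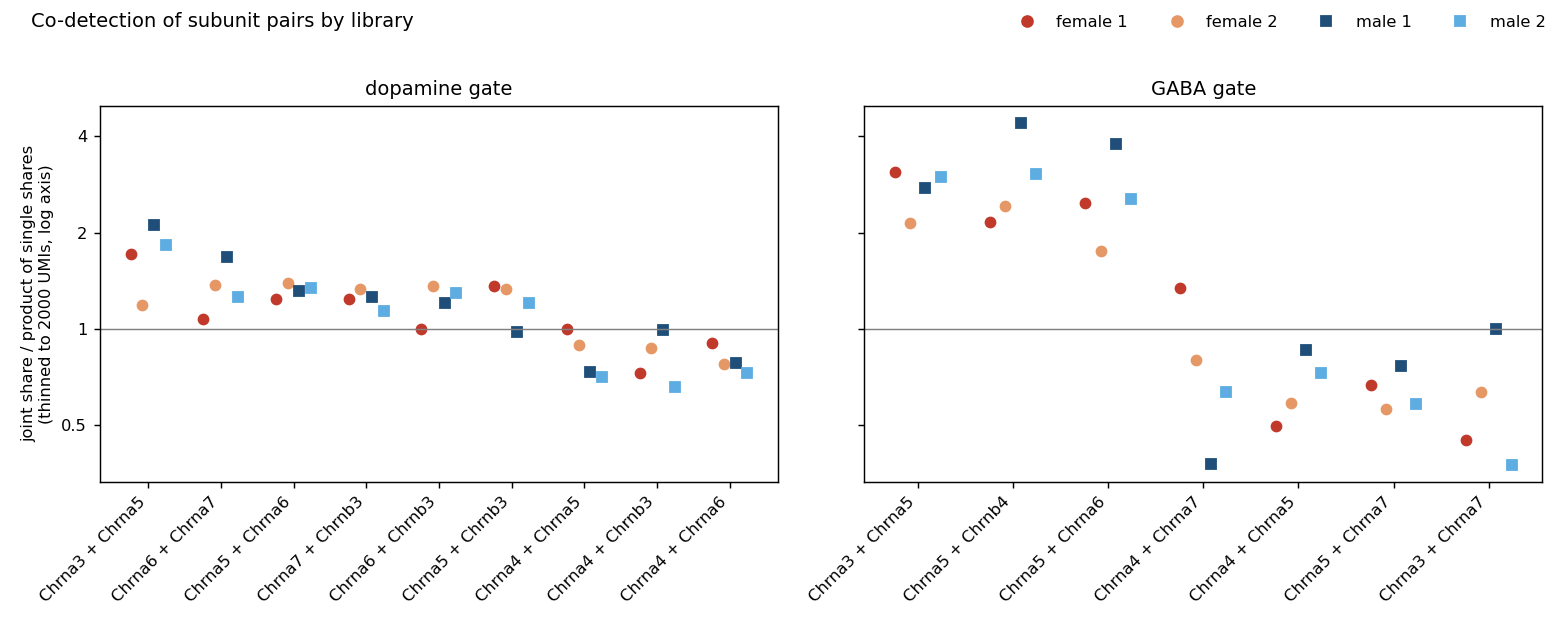
Joint share of nuclei with both genes of a pair over the product of the 2 single shares, each nucleus thinned to 2000 UMIs, on a log axis, by library, in dopamine (left) and GABA (right) nuclei. The line at 1 marks independent detection. Pairs of Chrna4 with Chrna5, Chrna6 or Chrnb3 lie at or below 1 in dopamine nuclei, and Chrna3 with Chrna5 lies above 2 in GABA nuclei.

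Within the dopamine gate 1 member was called in 1 of 4 subgroup comparisons. Subgroups were split by at least 1 UMI of a gene outside the family and tested with library as a block. In the 54 nuclei with Slc17a6, which marks dopamine neurons able to release glutamate, Chrna5 was at 156, 28.8, 33.9 and 49.9 CPM against 171, 123, 168 and 132 CPM in the 252 without, and female 1 overlapped the other group. The difference was -1.32 ± 0.28 (edgeR adjusted p = 0.00336), the 1 call among 6 members tested where 1.77% of genes were called (1.03% higher and 0.736% lower). It was not called with DESeq2 (-1.37, adjusted p = 0.0789) or without male 1 (-1.01, adjusted p = 0.114). Chrna6 was at 56.5 to 115 CPM with Slc17a6 and 116 to 142 without, a difference of -0.72 ± 0.24 that failed the adjustment (edgeR adjusted p = 0.144), and Slc6a3, a gate gene, averaged 717 against 951 CPM. GABA markers were higher on average with Slc17a6: Gad2 was at 0, 187, 282 and 88.8 CPM in the nuclei with Slc17a6, an average of 140 against 55.6 CPM without, and Slc32a1 averaged 39.0 against 19.5 CPM. Female 1, the library with no Gad2 UMI there, had the highest Chrna5 of the 4. Of the dopamine nuclei, 19 also met the Slc26a7-Gad2 gate, where Chrna5 had 3 UMIs, and the part of such nuclei in the difference was not tested.

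Splits of dopamine nuclei by Calb1, a calcium-binding protein of medial dopamine neurons, by Aldh1a1 and by Sox6, which mark ventral and lateral ones, called 0 of 6 members each, where 0.429% (0.362% higher and 0.0671% lower), 5.55% (2.63% and 2.92%) and 1.59% (0.841% and 0.751%) of genes were called. At an unadjusted p under 0.05 there were 2, 0 and 2 members, and DESeq2 also called 0. Chrnb3 was at 231, 324, 182 and 134 CPM in 59 nuclei with Sox6 and 128, 171, 134 and 142 CPM in those without (0.66 ± 0.19, edgeR adjusted p = 0.0873), and Chrna7 was higher by 0.89 ± 0.28 (edgeR adjusted p = 0.130). Both were called without male 2, with adjusted p of 0.0130 and 0.0279. Nuclei with Sox6 were also deeper in each library, with medians of 8244 to 13325 against 7841 to 10835 UMIs.

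The GABA gate was divided much more sharply. In the 240 nuclei with Gata3, a transcription factor of caudal and lateral GABA neurons, Chrna5 was at 7.90, 30.0, 14.9 and 17.3 CPM, against 163, 197, 104 and 165 CPM in the 891 without, and the groups did not overlap. The difference was -3.19 ± 0.19 (edgeR adjusted p = 4.02e-12). Chrna3 had 1 UMI against 176, a ratio of pooled levels of 58.7 with a 95% exact interval of 10.4 to 2332 (edgeR adjusted p = 2.26e-07). Those were 2 calls of 4 members tested, against 10.9% of genes (4.24% higher and 6.62% lower). Nuclei with Gata3 were deeper, with medians of 7576 to 9902 against 5936 to 7919 UMIs.

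Meis2 and Lum, a homeodomain factor and the proteoglycan lumican, marked nuclei with more Chrna5 and Chrna6 and less Chrna7 and Chrna4. In the 419 GABA nuclei with Meis2, Chrna5 was at 211, 236, 209 and 174 CPM against 77.4, 93.4, 35.9 and 90.7 CPM without (1.59 ± 0.15, edgeR adjusted p = 8.49e-09), and Chrna6 was at 9.12 to 16.5 CPM against 0 to 1.27 CPM (4.14 ± 0.57). Chrna7 was at 55.1 to 72.2 CPM against 86.9 to 151 CPM (-0.69 ± 0.13), and Chrna4 at 14.5 to 29.1 against 29.1 to 45.1 CPM (-0.89 ± 0.23). The Chrna4 call was lost with DESeq2 (adjusted p = 0.127), without female 1 (edgeR adjusted p = 0.119) and without male 2 (edgeR adjusted p = 0.0925). So 4 of 5 members tested were called, against 12.3% of genes (7.02% higher and 5.31% lower). Of the 48 Chrna6 UMIs in the GABA gate, 44 came from nuclei with Meis2, while Th in these nuclei averaged 6.24 CPM against 6.55 CPM in the others.

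In the 120 GABA nuclei with Lum, Chrna5 reached 326, 289, 289 and 247 CPM, the highest level of this gene in any subgroup tested, against 66.6 to 133 CPM without (1.58 ± 0.14, edgeR adjusted p = 2.13e-14). Chrna7 fell to 9.23 to 30.3 CPM against 83.5 to 138 CPM, by 2.31 on the log2 scale (SE 0.28), and Chrna4 to 0 to 9.45 CPM against 25.7 to 38.5 CPM, by 2.85 (SE 0.54) on 4 UMIs. Chrna6 was at 15.4 to 30.3 CPM against 2.35 to 4.45 CPM (2.56 ± 0.58). All 4 passed the edgeR test, of 5 members tested, where 15.4% of genes did (8.3% higher and 7.1% lower). Each split used the same 1131 nuclei, so the splits are not independent.

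Isl1, a LIM-homeodomain factor, marked too few GABA nuclei to test, 83 in all, of which 60 came from male 1. Chrna7 in them was at 253, 285, 201 and 549 CPM, against 69.8, 71.0, 112 and 68.5 CPM in the other GABA nuclei, and the groups did not overlap. Female 1, female 2 and male 2 gave 9, 4 and 10 such nuclei. Among nuclei with no Isl1 UMI, male 1 was the highest of the 4 libraries at 112 CPM. The part of nuclei with Isl1 in the level of male 1 was not tested.

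**Figure D4:**
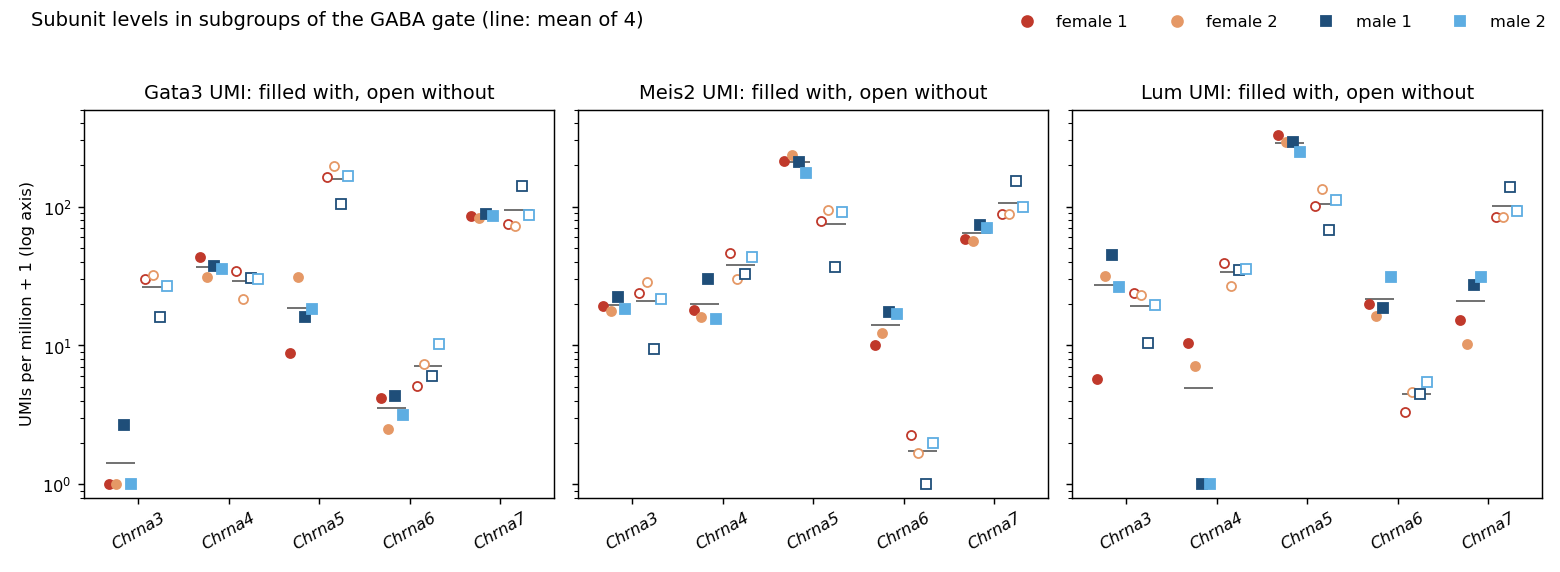
Levels of 5 subunit genes in GABA nuclei with (filled) and without (open) a UMI of Gata3, Meis2 or Lum, in CPM plus 1 on a log axis, by library, with the mean of 4 libraries as a line. Chrna5 and Chrna3 are low with Gata3, and Chrna5 is high and Chrna7 low with Lum, without overlap of the libraries.

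Glutamate nuclei were split by C1ql1, a synaptic organizer, by Lmx1a, a factor shared with dopamine neurons, and by Sim1. In the 450 nuclei with C1ql1, Chrna7 was at 73.9, 40.3, 70.0 and 55.0 CPM against 95.7, 100.0, 128 and 108 CPM (-0.85 ± 0.12, edgeR adjusted p = 4.72e-05). Chrna4 was higher by 0.63 ± 0.18 (edgeR adjusted p = 0.0312) and Chrna3 by 1.42 ± 0.41 (edgeR adjusted p = 0.0371), with overlapping groups, and both were lost with DESeq2 (adjusted p = 0.443 and 0.276) and without female 1. The Chrna4 call was also lost without male 1, without male 2 and with no replicate block, and the Chrna3 call without female 2. Th averaged 71.6 CPM with C1ql1 and 17.8 CPM without, and Gad2 15.5 and 47.2 CPM, and their part in these differences was not tested. All 3 members tested were called, against 7.16% of genes (3.42% higher and 3.73% lower). In the 640 nuclei with Lmx1a, Chrnb3 was at 3.02 to 8.58 CPM against 0.420 to 2.80 CPM (1.86 ± 0.50, edgeR adjusted p = 0.0260), 1 call of 4 members against 11.3% of genes (6.03% higher and 5.31% lower), which was lost with DESeq2 (adjusted p = 0.220) and without male 1. Chrnb3 had too few counts to be tested without female 1, without male 2 and with no replicate block. Its call thus held in 4 of the 6 alternatives that tested it. Th averaged 63.5 CPM with Lmx1a and 13.4 CPM without, and Gad2 59.8 and 22.4 CPM. Sim1 called 0 of 3 members against 5.55% of genes (2.82% higher and 2.73% lower), with 1 at an unadjusted p under 0.05, Chrna4 (-0.74 ± 0.23, edgeR adjusted p = 0.0813), which DESeq2 did not call.

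No member was called between the sexes. In dopamine nuclei the female and male means were 121 and 122 CPM for Chrna6, 181 and 146 CPM for Chrnb3, 137 and 127 CPM for Chrna5, and 54.4 and 64.3 CPM for Chrna4, and the libraries of the sexes overlapped in each of these. Female minus male was 0.31 ± 0.18 for Chrnb3 and -0.02 ± 0.18 for Chrna6 on the log2 scale. Of the members tested, 6 in dopamine, 3 in Slc26a7-Gad2, 6 in GABA and 6 in glutamate nuclei, edgeR called 0 at an adjusted p under 0.05, and DESeq2 called 0. Of all genes tested, 0.0671% were called in dopamine nuclei (0.0112% higher in females and 0.0559% lower), 0.0847% in Slc26a7-Gad2 nuclei (0.0423% each way), 0.0937% in GABA nuclei (0.017% and 0.0767%) and 0.0556% in glutamate nuclei (0.00794% and 0.0477%). These shares rest on few genes and were not stable: leaving out 1 library moved the number of genes called from 6 to between 8 and 30 in dopamine, from 4 to between 0 and 12 in Slc26a7-Gad2, from 11 to between 22 and 284 in GABA and from 7 to between 10 and 106 in glutamate nuclei, with 0 members called each time. Chrna7 in GABA nuclei alone had an unadjusted p under 0.05, with females at 77.2 and 74.2 CPM and males at 129 and 85.8 CPM (-0.49 ± 0.18, edgeR adjusted p = 0.692), and the difference was -0.18 without male 1. The sexes held 2 libraries each, and a failed test does not show that levels were equal. The difference of each dopamine contrast between the sexes was called for 0 of 7 members against Slc26a7-Gad2, GABA and glutamate nuclei, where 0.0171%, 0.00855% and 0% of 11700 genes were called, and no member had an unadjusted p under 0.05.

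Over the 16 sums of the 4 neuron gates, Chrna6 and Chrnb3 followed each other closely, with a Pearson correlation of 0.94 in log2(CPM + 1), and Chrna3 and Chrna5 at 0.72. Chrna3 and Chrna7 ran opposite, at -0.74. Sums of 1 library share nuclei preparation and depth, so these are descriptions. Of 11201 genes compared, all at 5 CPM or more on average, those most like Chrna6 were Erc2 (0.98), which encodes a protein of the presynaptic active zone, with 2207, 1345, 452 and 400 CPM in the dopamine, Slc26a7-Gad2, GABA and glutamate gates, and the genes listed as AABR07021704.1 and AABR07024542.1. Those most like Chrnb3 were Mfsd6 (0.99), the axon guidance factor Ntn1 (0.99) with 790, 413, 32.2 and 61.4 CPM, and Klhl1 (0.98). Nearest to Chrna5 were Sphkap (0.93), Sh3rf1 and LOC108348175, and to Chrna3 Btc (0.97), which encodes the growth factor betacellulin, the kainate receptor subunit gene Grik3 (0.94) and Adamts15. Chrna4 had Cr1l (0.90), LOC100364435 and Exoc6b, Chrna7 had the proteoglycan gene Vcan (0.92), AABR07027979.1 and Tufm, Chrnb2 had LOC108348145 (0.84), Cdh12 and Uvrag, and Chrnb4, at 1.13 CPM on average, had App (0.90), Eya1 and Slc30a3.

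The wider cholinergic list held 25 genes, of which 24 were found by name and 16 were tested. Dopamine nuclei were called higher in 2 and lower in 9 of the 16 against GABA nuclei, where 32.1% of all genes were called (15.4% higher and 16.6% lower). The counts were 2 and 6 against glutamate nuclei, beside 27% of genes (13.8% and 13.2%), and 4 and 2 against Slc26a7-Gad2 nuclei, beside 15.8% (8.75% and 7.04%). Chrm5, the muscarinic receptor known from dopamine neurons, averaged 202 CPM in dopamine nuclei against 55.3, 67.0 and 34.6 CPM in Slc26a7-Gad2, GABA and glutamate nuclei, and exceeded them by 1.91 ± 0.24, 1.70 ± 0.13 and 2.57 ± 0.14. Ly6h, a prototoxin-like protein that binds nicotinic receptors, averaged 828 CPM against 373, 529 and 539 CPM. Of its relatives on the list, 3 went the other way against GABA nuclei. Lynx1 averaged 26.5 CPM in dopamine and 67.6 CPM in GABA nuclei, Lypd6 0.682 and 18.6 CPM, and Lypd6b 7.58 and 93.0 CPM, all 3 called lower in dopamine than in GABA nuclei. A further relative on the list, Lypd1, is not described here. The muscarinic receptor Chrm3 was also lower there, at 0.654 CPM against 18.6 CPM in GABA and 13.0 CPM in glutamate nuclei.

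A further nicotinic subunit outside the 8, Chrna2, averaged 25.1 CPM in GABA nuclei and had 0 UMIs in dopamine nuclei, at least 25.9-fold lower at 3 counts over the gate. The receptor chaperones Ric3 and Tmem35a averaged 58.3 to 68.2 CPM and 44.6 to 66.6 CPM over the 4 neuron gates. Chat, which makes acetylcholine, averaged 0.979 to 2.27 CPM there, and Slc18a3, its vesicular transporter, had no UMI. Acetylcholinesterase, Ache, averaged 104 CPM in dopamine nuclei and 149 CPM in GABA nuclei.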

How the data were processed

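The deposited files hold raw counts of UMIs per gene and barcode, made by the authors with Cell Ranger and the rn6 genome, per the submitters' processing notes, and the file headers name software version 3.0.2. The annotation, the use of intronic reads and strand, and the choice of barcodes were not stated in the labels or headers. From 21606 barcodes, 6 with under 200 genes or over 5% mitochondrial UMIs and 980 doublet calls were left out (Scrublet in scanpy 1.11.5, the top scores at 0.8% per 1000 barcodes). Library totals were 19714338 to 25824289 UMIs, which limit counting precision, and intervals and floors (3 counts) cover counting error only.

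UMIs were summed per gate and library and tested with edgeR 4.0.16 (R 4.3.3; TMM scaling, filterByExpr, quasi-likelihood test, Benjamini-Hochberg over all genes tested, threshold 0.05), with library as a block except between the sexes. DESeq2 1.42.0 was an alternative. On simulated counts for dopamine against GABA nuclei, 79% of genes changed by 1 on the log2 scale and 98% of those changed by 2 were recovered, and for female against male dopamine nuclei 58% and 99%. The changed genes were drawn above a minimum summed count and simulated with a fixed spread. Chrnb2 and Chrnb4 lay below that minimum in both cases, and Chrna3, Chrna4 and Chrna7 in the case of the sexes. These shares therefore do not describe those members. Each of the 8 members is reported. Other genes were named from the fixed cholinergic list, the subgroup genes and the 3 genes most like each member. The members and lists were chosen with earlier results of these data known. The sums of 1 marker list are not reported here.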

Additional observations from a re-analysis of the deposited data

Results flagged for a closer look

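A library that stood apart from the other 3 was looked for in 29 pairs of a member and a gate with at least 20 UMIs, by the gap to its nearest neighbour over the whole range (Dixon's 95% critical value). It was found in 3 pairs, and chance flags about 1 in 20 groups. Chrnb3 in dopamine nuclei was at 215 CPM in female 2, where the others lay between 142 and 151 CPM. Chrna5 in glutamate nuclei was at 3.10 CPM in female 1, where the others lay between 1.81 and 1.94 CPM. Chrnb3 in glutamate nuclei was at 5.42 CPM in male 2, where the others lay between 2.91 and 3.23 CPM.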

How the results depend on the processing

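The number of members called between neuron gates stayed within 1.5 times its main value in all 84 alternatives, and no member was called between the sexes in any of 52. The margin of 1.5 times is wide for such small counts. The 4 calls between dopamine and GABA nuclei ranged from 3 to 5, and the 3 between Slc26a7-Gad2 and glutamate nuclei from 2 to 4. Of 558 single differences of members between neuron gates, 21 lost and 3 gained a call, and 15 changed direction. Members with small differences changed direction. With neuron gates at 1 UMI, Chrnb2 in dopamine minus Slc26a7-Gad2 nuclei came to 0.16, and Chrna4 in Slc26a7-Gad2 nuclei to 0.10 over GABA and 0.14 over glutamate nuclei. With each nucleus in every neuron gate it passed, also where it passed a glial gate, Chrna6 in GABA minus glutamate nuclei was -0.12. Chrna4 in GABA minus glutamate nuclei was -0.018 with DESeq2 and -0.0089 with all 8 gates fitted. Leaving out 1 library gave ranges of -0.00010 to 0.46 for Chrna5 in dopamine minus GABA nuclei, -0.44 to 0.013 for Chrna4 in Slc26a7-Gad2 minus GABA nuclei, -0.47 to 0.19 for Chrna4 and -0.42 to 1.35 for Chrna5 in Slc26a7-Gad2 minus glutamate nuclei, and, in GABA minus glutamate nuclei, -0.14 to 0.024 for Chrna7, -0.065 to 0.18 for Chrna4 and -0.21 to 0.35 for Chrnb2. Chrna4 there was -0.02 without male 1 and -0.03 without male 2. The cause was not tested.

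Members called between subgroups changed to 0 for Slc17a6, 1 for C1ql1 and 0 for Lmx1a with DESeq2. With no filter on low counts they were 2 for Lmx1a and 2 for Sim1, and with doublets kept 1 for Sim1. Leaving out 1 library gave 0 to 1 for Slc17a6, 0 to 2 for Sox6, 1 to 2 for C1ql1, 0 to 2 for Lmx1a and 0 to 1 for Sim1. With no replicate block they were 1 for C1ql1 and 0 for Lmx1a, but Chrna3 for C1ql1 and Chrnb3 for Lmx1a then had too few counts to be tested. Chrnb3 for Lmx1a was also not tested without female 1 or without male 2. The replicate block between the sexes called 0 members. As a check of pairing by number, deviations of female 1 and of male 1 from the mean of their own sex were correlated over genes. The correlations were 0.03 to 0.37 over the neuron gates. With 2 libraries per sex each gate gives only 1 such value, so the numbers were not taken to pair the libraries.

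Joint shares followed depth by construction. At 1000 UMIs, at 4000 and without thinning, Chrna6 with Chrnb3 in dopamine nuclei was at 1.68%, 14.5% and 36.1%, Chrna4 with Chrna6 at 0.489%, 5.54% and 19.6%, and Chrna3 with Chrna5 in GABA nuclei at 0.570%, 4.18% and 8.13%.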
